A study of Oryza sativa with 39 samples.

Results

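The 100 leaf genes whose expression varied least across 13 rice lines were described. They were chosen from the deposited values by a fixed rule. Of 109715 identifiers in the files, 37830 were reference loci, and 3622 of these had a mean over the 39 libraries of at least 20 FPKM, a read count scaled by transcript length and library size. The 100 of these 3622 loci with the lowest coefficient of variation (CV, the SD divided by the mean of FPKM over the 39 libraries) were taken. Because the rule used these same values, the CV of the 100 loci and their differences between lines are a description. Counts of these loci passing a test over all genes are printed beside the share of all genes, and nothing is read from them. Tests that the rule did not touch were made on loci chosen again in other libraries.

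The study set insect-resistant rice made by genetic engineering (GE) against rice made by cross-breeding. Leaf RNA came from 7 Xian/Indica (XI) and 6 Geng/Japonica (GJ) lines, the 2 main subspecies of cultivated rice, with 3 replicates per line, hence 21 XI and 18 GJ libraries. The XI lines were the parent MH63, the GE lines T1C-19 (cry1C under a maize ubiquitin promoter) and HH1 (fused cry1Ab/Ac under a rice actin1 promoter), and the conventional lines XIY63, XXY63, SY63 and JY63. The GJ lines were the parent XS11, the GE lines KMD1 and KMD2 (separate transformation events carrying a synthetic cry1Ab under a maize ubiquitin promoter), and the conventional lines CJ03, JH1 and T202. All GE lines were made with Agrobacterium from the parent of their subspecies. The conventional lines have that parent in their pedigree, so the lines of a subspecies are related and are not independent samples of it. Plants were 5 weeks old and at tillering, and each replicate pooled the middle of the second leaf of 5 plants. Replicates therefore give the spread between pools of plants grown together. Which subspecies a line belongs to was taken from the study's text.

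Genes with a steady transcript level are used as internal references: the level of another gene is divided by theirs to remove differences in the amount of RNA that was loaded. Such genes are often those of basic cell functions, such as protein turnover, translation and transport within the cell, and no gene is steady under every condition. Whether a gene counts as steady depends on the tissue, on the genotypes compared and on how the libraries were scaled to each other. The files pair the locus identifiers with no gene name or product, so the loci are given by identifier and their functions were not analysed here. An identifier carries the chromosome in the digits after OS.

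The CV of the 100 loci ranged from 7.04% to 11.2%, with a median of 10.2%. Over all 3622 loci the median was 31.9%, with quartiles of 21.1% and 47.8%, 367 loci had a CV of at most 15% and 815 had a CV above 50%. The lowest library of a chosen locus was never far from its highest: the ratio of highest to lowest ran from 1.32 to 1.77, with a median of 1.53. In 39 of the 100 loci every library lay within 1.5-fold of every other, and in all 100 within 2-fold, as in 560 of the 3622 loci. The last locus taken, OS02G0301500, had a CV of 11.22% and the first left out, OS06G0644100, one of 11.23%, so no gap separated the list from the loci after it. In a whole leaf section, a difference in the share of a cell type and a difference in RNA per cell cannot be told apart.

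**Figure D1:**
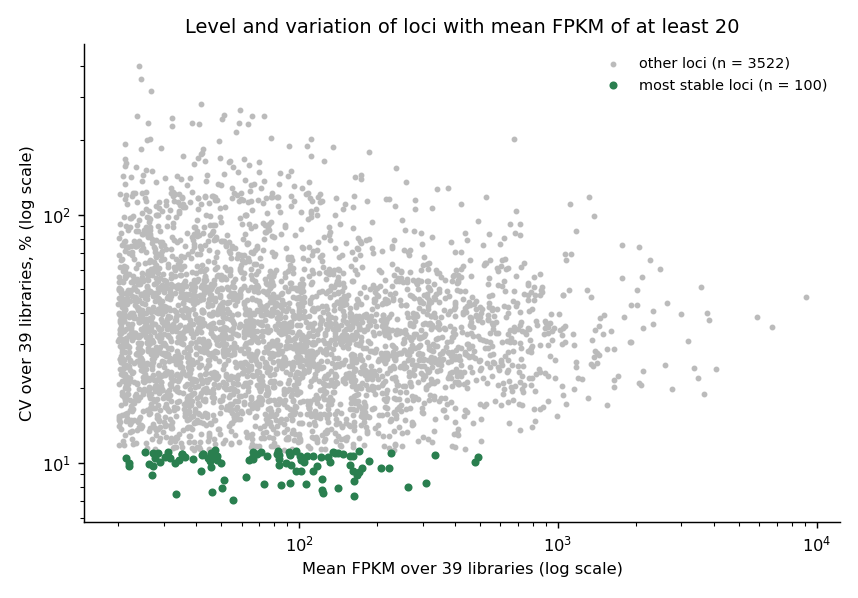
Mean FPKM (x axis, log scale) against CV in percent (y axis, log scale) over 39 libraries for the 3622 loci with a mean FPKM of at least 20, 1 point per locus. The 100 chosen loci (green) lie at CVs of 7.04% to 11.2% and at mean FPKM of 21.5 to 492, and the other 3522 (grey) lie above them.

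OS04G0533000 had the lowest CV, 7.04%, at a mean of 55.5 ± 3.91 FPKM (SD, n = 39). Its XI libraries ran from 51.4 to 67.6 FPKM with a median of 56.8, and its GJ libraries from 47.5 to 60.3 with a median of 53.1. The subspecies overlapped, and the highest library was replicate 1 of HH1. OS05G0371200 had a CV of 7.30% at 163 ± 11.9 FPKM, with XI libraries between 136 and 183 (median 164) and GJ libraries between 141 and 180 (median 160). OS03G0308500, with a CV of 7.45%, was lower, at 33.5 ± 2.50 FPKM, and its XI range of 29.3 to 38.7 (median 34.8) covered its whole GJ range of 29.9 to 36.2 (median 31.7).

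OS05G0292200 had the narrowest range of line means of all 3622 loci. Its CV was 7.51% at 123 ± 9.27 FPKM (SD, n = 39), and its 13 line means lay between 115 in KMD1 and 129 in HH1, a ratio of 1.12. Its lowest and highest single libraries, 107.0 and 146 FPKM, were both SY63, so its replicates differed more than its lines did. Of its total sum of squares, 77.9% lay within lines, the highest share of the 3622 loci. The other loci among the lowest 10 were OS02G0101800 (46.2 FPKM, CV 7.62%), OS08G0127700 (122 FPKM, CV 7.76%), OS04G0485100 (50.2 FPKM, CV 7.92%), OS03G0788800 (141 FPKM, CV 7.93%), OS05G0589600 (262 FPKM, CV 7.99%) and OS06G0183900 (84.9 FPKM, CV 8.09%). In each of the 10, XI and GJ libraries overlapped.

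**Figure D2:**
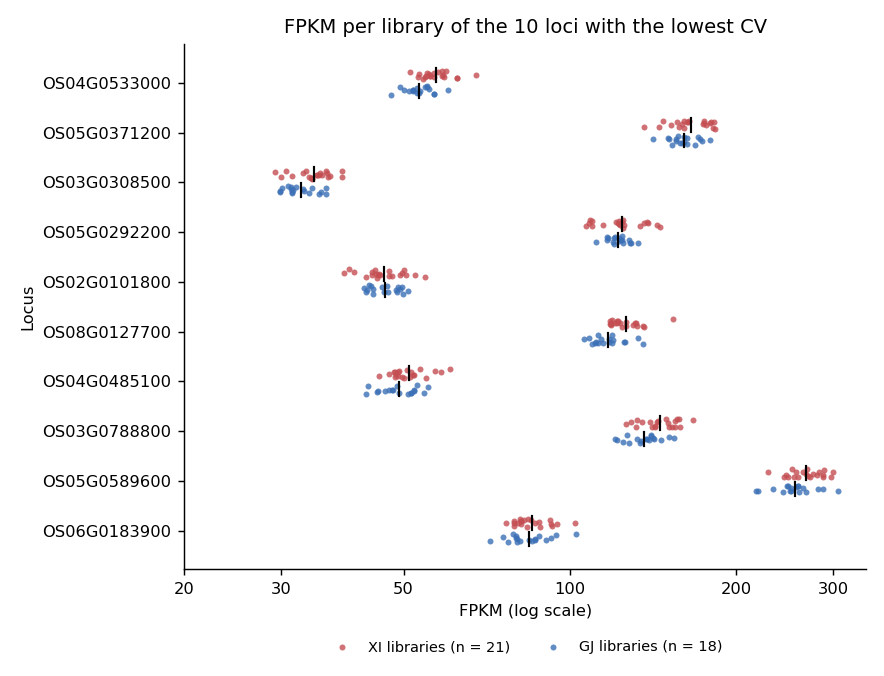
FPKM (x axis, log scale) in each library of the 10 loci with the lowest CV, with 21 XI libraries (red) and 18 GJ libraries (blue) per locus and a black bar at each mean. The points of a locus span less than 1.5-fold, from 47.5 to 67.6 FPKM in OS04G0533000, and the colours overlap throughout.

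The chosen loci were moderately expressed. Their mean FPKM ranged from 21.5 to 492, with a median of 83.5 against 76.0 over the 3622 loci, and single libraries lay between 17.1 and 607.5 FPKM. The range from 20 to 50 FPKM held 35 of the 100 loci and 1320 of the 3622, that from 50 to 100 held 26 and 815, and that from 100 to 200 held 31 and 671. At 200 FPKM or more there were 8 chosen loci among 816, so the most strongly expressed genes of the leaf were seldom among the steadiest. The highest were OS02G0116900 at 492 ± 51.8 FPKM (SD, n = 39), OS06G0646500 at 480 ± 48.1, OS06G0153800 at 337 ± 36.02, OS01G0253300 with a mean of 309 and OS05G0589600 with a mean of 262. Together the 100 loci took between 1.54% and 2.13% of the reads of a library.

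The rule did not use transcript length, and the chosen loci were long. Their median length, computed from the steps of the FPKM values, was 1862.5 bases against 1200 bases over the 3622 loci. When the 3622 loci were divided by length into 4 groups of equal size, the shortest group (155 to 822 bases) held 0 of the 100 loci, the next (823 to 1200 bases) 9, the next (1201 to 1724 bases) 34 and the longest (1725 to 6256 bases) 57. Long transcripts collect more fragments at the same FPKM. The median counting CV, which is the CV that sampling of reads alone gives, fell from 5.63% in the shortest group to 3.96% in the longest, while the median CV over all libraries fell from 41.0% to 26.1%. When the counting variance was taken off before the 100 loci were chosen, 87 of the loci remained, and the 4 groups then held 2, 11, 34 and 53 loci. Chosen loci were longer at every level: the medians were 1987 against 1398 bases at 20 to 50 FPKM, 1780 against 1233 at 50 to 100, 1642 against 1173 at 100 to 200, and 1348.5 against 999.5 at 200 or more. Differences between short and long transcripts in library preparation were not tested.

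The chosen loci lay on all 12 chromosomes, in numbers from 17 of 560 loci on chromosome 3, 14 of 469 on chromosome 2 and 14 of 330 on chromosome 5 to 3 of 217 on chromosome 8 and 2 of 167 on chromosome 9. Next to each other among the 3622 loci stood only OS05G0589000 and OS05G0589600, whose FPKM correlated with r = 0.42 over the 39 libraries. Pairs of chosen loci had a median Pearson r of 0.13 over 4950 pairs and 39 libraries, and 42 pairs had r above 0.7. Correlations between pairs of the other loci are not given here, so these values have nothing to be set against. The closest pair was OS06G0646500 and OS06G0153800 (r = 0.85), both at their lowest in a T1C-19 or XIY63 library and at their highest in replicate 2 of HH1. All pairs share the libraries and their scaling, and with plain read totals as the scaling the median r was 0.44.

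The remaining variation of the chosen loci had 3 parts. Counting alone gave a CV of 1.65% to 7.73%, with a median of 3.53%. The CV between replicates of a line had a median of 6.95%, against 16.7% over the 3622 loci, and counting made up a median of 30.7% of this variance, against 6.73%. Of the total sum of squares of a chosen locus, a median of 34.3% lay within lines, 47.6% between lines of a subspecies and 9.86% between subspecies. Over the 3622 loci the medians were 21.6%, 50.1% and 19.9%. These counting values rest on reads recovered from the FPKM steps and would be lower if the true reads were more. A chosen locus had between 118 and 5539 reads in a library, and 87 of the 3622 loci had a counting CV above the highest CV on the list.

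Differences between lines were small in every chosen locus. The ratio of the highest to the lowest line mean ran from 1.12 to 1.52, with a median of 1.32, against a median of 2.48 over the 3622 loci. It was above 1.5 in 1 of the 100 loci and in 3314 of the 3622, or 91.5%. That 1 locus, OS02G0259100, ranged from 121 FPKM in KMD2 to 184 in JH1. The next widest were OS09G0258500 (24.6 FPKM in KMD1 and 36.3 in SY63), OS03G0744800 (68.9 in XS11 and 100.1 in HH1), OS11G0572100 (39.4 in XS11 and 56.8 in XIY63) and OS01G0811100 (157 in T1C-19 and 226 in HH1). Across the 13 lines, limma's F test called 71 of the 100 loci at an adjusted p below 0.05, where it called 78.2% of all genes tested and 96.9% of the 3622 loci. The rule used these values, so nothing is read from the count. It was 37 without replicate 1, 19 without replicate 2 and 24 without replicate 3.

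Some lines were high or low across many of the chosen loci at once. HH1 had the highest line mean in 29 of the 100 loci and XIY63 in 17, while KMD1 had the lowest in 18 and T1C-19 in 14. The median deviation of a line from the mean of the 13 lines ran from -0.07 on the log2 scale in KMD1 to 0.10 in HH1. Over all loci of at least 20 FPKM it was 0.14 in HH1, -0.10 in KMD1 and -0.22 in T1C-19, the same direction as in the chosen loci. In XIY63 it was -0.27 over all those loci and 0.04 in the chosen loci. The highest median over all those loci was 0.15, in T202, where that of the chosen loci was -0.01. Among libraries, replicate 2 of XIY63 was the highest of the 39 in 20 of the chosen loci and replicate 2 of HH1 in 12. HH1 had the lowest depth, 4187330 ± 182577 reads per library (SD, n = 3), and MH63 the highest, 7520580 ± 954635. The part of depth in these orders was not tested.

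The order of the lines depended on the scaling of the libraries. The deposited values carry a median-of-ratios scaling, in which a typical gene is held equal between libraries. With each library divided by its plain read total, the median log2 deviation was -0.23 in XS11, which was the lowest line in 52 of the 100 loci, and 0.17 in XIY63, which was the highest in 37. HH1 was then the highest in 12 loci and KMD2 in 24. With this scaling the median CV of the chosen loci was 12.4%, with a range of 7.41% to 17.0%, against 29.6% over the 3622 loci, and the same rule chose only 35 of the same 100 loci. A measure that needs no scaling is the SD of the log2 ratio of a locus to each other locus. By it 22 of the 100 loci were among the 100 steadiest and 80 among the 500 steadiest of 3468 loci without a 0. OS06G0646500 ranked 4 and OS06G0153800 ranked 7 by this measure, while OS04G0533000 ranked 246.

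**Figure D3:**
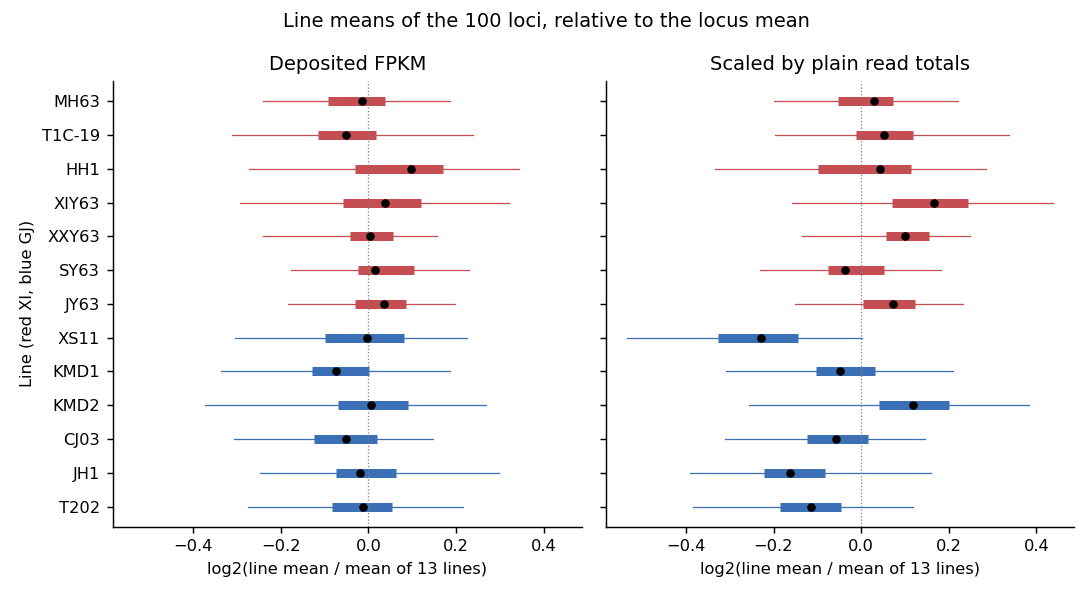
Deviation of each line mean from the mean of the 13 lines (x axis, log2 scale) for the 100 chosen loci, with the deposited FPKM on the left and with plain read totals on the right. The black point is the median over loci, the thick bar the middle 50% and the thin line the full range, red for XI and blue for GJ lines. HH1 stands highest on the left (median 0.10), and on the right XS11 stands lowest (-0.23) and XIY63 highest (0.17).

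The subspecies differed little in the chosen loci. The size of the log2 difference between the mean of the 7 XI lines and the mean of the 6 GJ lines had a median of 0.09, against 0.35 over the 3622 loci. It was beyond 1.1-fold in 29 loci. XI was higher in 67 of the 100 loci and GJ in 33, with a median difference of 0.04 on the log2 scale, against -0.06 over the 3622 loci. The shares of the 3622 loci beyond 1.1-fold or higher in XI were not computed, so nothing particular to the chosen loci is read from these counts. The rule limits the spread over all 39 libraries, which keeps the subspecies differences of the chosen loci small. With plain read totals XI was higher in 86 of the 100 loci and the median was 0.13, so the direction of small differences rests on the scaling. Line means of XI and GJ did not overlap in 6 of the 100 loci, in 5 with XI above, against 17.9% of the 3622 loci. With limma on the 13 line means, 7 of the 100 loci were called at an adjusted p below 0.05, 5 higher in XI and 2 higher in GJ. Of all genes tested 15.8% were called higher in XI and 20% higher in GJ. In both directions together, 35.8% of all genes tested and 38.7% of the 3622 loci were called. The rule used these values too, so nothing is read from the count of 7. It was 3 without JH1 and 4 without MH63, without T1C-19, without XIY63, without XXY63, without JY63 or without XS11.

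OS02G0776700 had the largest difference. Its XI libraries ran from 98.6 to 133 FPKM with a median of 119, and its GJ libraries from 90.2 to 109 with a median of 98.3. Single libraries overlapped, but the lowest XI line mean (104 in T1C-19) was above the highest GJ line mean (102 in KMD2). The means were 116 ± 8.06 (SD of line means, n = 7) and 98.1 ± 3.63 (n = 6), which is 1.18-fold. OS07G0476200 was 1.17-fold higher in XI, at 48.5 ± 2.27 against 41.3 ± 1.79, with XI libraries from 43.8 to 57.3 (median 48.1) and GJ libraries from 38.8 to 46.5 (median 40.2). OS01G0675500 was the 1 locus with every GJ line above every XI line. Its GJ libraries ran from 37.8 to 53.4 FPKM (median 46.2) and its XI libraries from 33.1 to 45.6 (median 39.5), and its line means averaged 46.1 ± 3.57 and 39.6 ± 1.205. Lines of 1 subspecies differed as much as the subspecies did in OS02G0776700, where XI line means went from 104 to 125, and in OS01G0675500, where GJ line means went from 42.4 to 51.3. With plain read totals the log2 differences of the 3 loci were 0.33, 0.33 and -0.12, against 0.24, 0.23 and -0.22 with the deposited values.

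**Figure D4:**
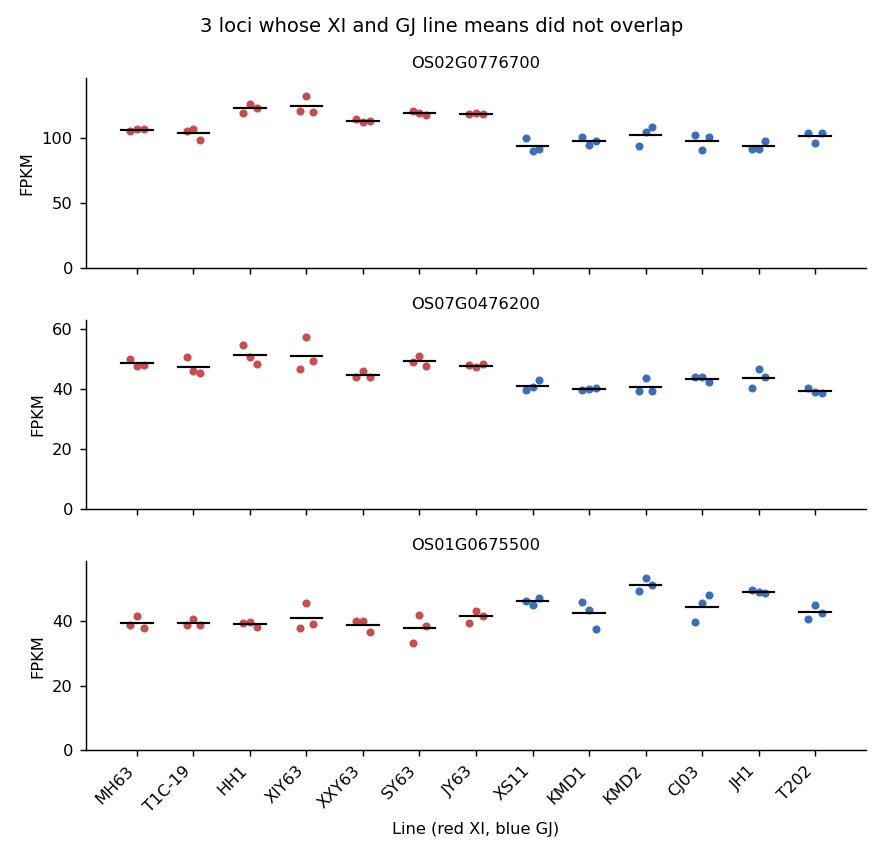
FPKM (y axis, from 0) by line (x axis, 7 XI lines in red and 6 GJ lines in blue) of 3 loci whose XI and GJ line means did not overlap, with a point per replicate and a black bar at the line mean. The gap between subspecies is narrow: 104 against 102 FPKM between the nearest line means of OS02G0776700.

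Each GE or conventional line was then compared with its parent, 11 comparisons in all, of which those within a subspecies share the parent's libraries. With an adjusted p below 0.05 and at least a 2-fold change required, limma called 0 of the 100 loci in each of the 11. The rule fixed this count, since no 2 libraries of a chosen locus differed by more than 1.77-fold. Of all genes tested, the same thresholds called 2.19% in T1C-19, 17.6% in HH1, 8.73% in XIY63, 4.13% in XXY63, 8.26% in SY63 and 5.54% in JY63 against MH63. Against XS11 they called 3.93% in KMD1, 13.4% in KMD2, 10.3% in CJ03, 3.05% in JH1 and 9.69% in T202. Without a minimum fold change it called 5 loci in HH1, all higher than in MH63, where 38.5% of all genes were called, 2 loci in KMD2, both lower than in XS11 (24.4%), 1 in T202, lower (14.4%), and 0 in the other 8 comparisons. In these 8 it called 2.91% of all genes in T1C-19, 14.1% in XIY63, 5.95% in XXY63, 12.2% in SY63, 7.88% in JY63, 8.01% in KMD1, 14.4% in CJ03 and 3.21% in JH1. At an unadjusted p below 0.05 the numbers ran from 0 in T1C-19 and JH1, where 21.2% and 13.4% of all genes passed, to 25 in HH1, where 48.4% passed. The rule used all these libraries, so nothing is read from these counts or from the sizes of change of the 100 loci. The median size of the log2 change of the 100 loci was 0.08 to 0.15 in the 4 GE lines and 0.08 to 0.13 in the 7 conventional lines. Over the tested loci of at least 20 FPKM it was 0.24 (T1C-19) to 0.43 (HH1) in the GE lines and 0.16 (XXY63) to 0.38 (CJ03) in the conventional lines. The widest change of a chosen locus in any comparison was in OS02G0259100. It had 119, 121 and 124 FPKM in KMD2 and 180, 169 and 165 in XS11, a level 1.42-fold lower in KMD2 with no overlap between the 3 libraries of each.

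For a test that the rule had not touched, the 100 steadiest loci were chosen again for each comparison from the other 33 libraries, leaving out the line and its parent. These lists shared 80 to 92 loci with the main list. The median size of the log2 change of these loci was 0.09 (KMD1) to 0.18 (HH1) in the 4 GE lines. In the 7 conventional lines it was 0.09 (JH1) to 0.16 (XIY63). Over the tested loci of at least 20 FPKM the ranges were those given above, 0.24 to 0.43 and 0.16 to 0.38. At a fold change of at least 2, 1 locus was called in XIY63 and 0 in the other 10 comparisons. That locus, OS01G0148700, had 44.3, 44.4 and 40.7 FPKM in XIY63 and 90.6, 86.5 and 91.6 in MH63. All 3 XIY63 libraries were below all 3 MH63 libraries, and it fell by 1.04 ± 0.11 on the log2(FPKM + 1) scale (SE; limma adjusted p = 0.00113). It stayed below an adjusted p of 0.05 in all 11 alternative settings (0.000927 to 0.0167), but the fall was just under 2-fold with plain read totals (0.95 on the log2 scale) and without replicate 3 of XIY63. This locus was among the steadiest 100 in the 33 libraries of the other 11 lines.

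Without a minimum fold change, limma called 17 of these 100 loci in HH1, 3 in KMD2, 1 each in XIY63, CJ03 and T202, and 0 in the other 6 comparisons. Among all loci of at least 20 FPKM, 45.5% were called in HH1, 33.8% in KMD2, 11.7% in XIY63, 17.9% in CJ03 and 20.7% in T202, and in the 6 comparisons without a call 2.76% in T1C-19, 4.72% in XXY63, 12.1% in SY63, 6.23% in JY63, 13.7% in KMD1 and 2.19% in JH1. At an unadjusted p below 0.05 the numbers were 36 in HH1, 11 in XIY63, 10 in KMD2, 10 in T202, 9 in CJ03, 7 in KMD1, 5 in SY63, 3 in XXY63, 3 in JY63, and 0 in T1C-19 and JH1. Among the loci of at least 20 FPKM, the shares at that threshold were 56.1% in HH1, 28.2% in XIY63, 50.3% in KMD2 and 36.9% in T202. They were 41.0% in CJ03, 43.5% in KMD1, 31.6% in SY63, 15.5% in XXY63, 26.2% in JY63, 26.3% in T1C-19 and 11.6% in JH1. In HH1 all 17 were higher than in MH63, and the median log2 change of the 100 loci was 0.16. Over all loci of at least 20 FPKM, the median log2 deviation from the mean of the lines was 0.14 in HH1 and -0.17 in MH63. Loci of that level thus also leaned higher in HH1, and nothing particular to the steady loci is read from the direction. How many of the calls among all those loci were higher in HH1 is not given. Of the 100 loci, OS10G0413500 changed most in HH1. It had 164, 158 and 165 FPKM in HH1 and 109.7, 115 and 108 in MH63, without overlap, and rose by 0.55 ± 0.10 (SE; limma adjusted p = 0.00415, and 0.00328 to 0.0215 over 11 alternatives). The count of 17 rested on single libraries: it was 6, 3 and 5 without replicates 1, 2 and 3 of HH1, 7 without replicate 1 and 2 without replicate 3 of MH63, and 21 without replicate 2 of MH63. With plain read totals it was 5, where 41.4% of the loci of at least 20 FPKM were called. The count in KMD2 went from 3 to 47 with plain totals (33.8%), that in CJ03 from 1 to 7 (16.6%), those in XIY63 and T202 from 1 to 3 (12.3% and 24.2%) and that in KMD1 from 0 to 3 (10.1%). For these counts the lists were still those chosen with the deposited values. They were not chosen again with plain totals, so none is a count of loci steady with plain totals.

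The 2 scalings gave different changes. Between plain totals and the deposited scaling, the median log2 change of all genes moved by 0.24 in KMD2, 0.18 in KMD1, 0.16 in CJ03, 0.09 in T202 and 0.06 in JH1, all against XS11, and by -0.07 to 0.06 in the lines set against MH63. The median log2 change of the 100 chosen loci in KMD2 was 0.04 with the deposited values and 0.37 with plain totals. Scaling multiplies every gene of a library by the same factor. On the log2(FPKM + 1) scale the added 1 damps the shift in genes of low FPKM. The smaller shift over all genes is therefore no measure of a change particular to the chosen loci. OS02G0259100, called lower in KMD2 (log2 change -0.50 ± 0.10, limma adjusted p = 0.0143), had a log2 change of -0.16 with plain totals, where it was not called. Its adjusted p ranged from 0.0145 to 0.230 over 11 alternatives, and the call was also lost without replicate 1 or replicate 2 of KMD2.

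Loci chosen in some libraries were then measured in others. The 100 steadiest loci of the 21 XI libraries had a median CV of 8.08% there and of 9.57% in the 18 GJ libraries, where the median over 3479 loci of at least 20 FPKM in XI was 24.3%. Of the 100, 84 lay in the lowest 10% of CVs in GJ and 99 below the median. Loci chosen in GJ had a median CV of 7.80% there and of 10.1% in XI, against 26.4% over 3664 loci, and 76 lay in the lowest 10%. Loci chosen in 2 of the 3 replicates of each line had a median CV of 10.4% to 11.1% in the remaining replicate, against 31.3% to 32.1%, but these replicates share the lines and are no independent sample of rice. When a whole line was left out of the choice, the median CV between its own 3 replicates was 4.602% (XXY63) to 7.85% (XIY63) for the chosen loci, against 10.2% to 17.1%. In these lines 84 to 98 of the 100 loci lay below the median CV, but only 12 (KMD2) to 44 (JH1) in the lowest 10%. The mean of the line left out differed from that of the other lines by a median of 0.06 (XXY63) to 0.18 (HH1) on the log2 scale, against 0.22 to 0.40. The XI and GJ lists had 38 loci in common. Of the 100 main loci, 26 were on both, among them OS04G0533000, OS05G0371200 and OS03G0308500, and 31 were on neither.

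Steady within a subspecies did not mean equal between them. Of the loci chosen in XI, 70 had mean FPKM within 1.2-fold between XI and GJ, and of those chosen in GJ 71. The share of all loci within 1.2-fold is not given. The median size of the log2 difference between the subspecies was 0.21 for the loci chosen in XI. Over all loci of at least 20 FPKM in XI it was 0.34. For the loci chosen in GJ it was 0.18, against 0.36, so the chosen loci differed less than is usual. OS04G0394300, chosen in XI, had a mean of 98.1 ± 7.11 FPKM in XI (SD, n = 21) and of 27.5 ± 2.75 in GJ (n = 18), which is 3.57-fold, while its CV within GJ was only 10.02%. OS07G0446100, also chosen in XI at 72.2 ± 5.83 FPKM, had 37.7 ± 14.8 FPKM in GJ and there the highest CV of the list, 39.2%. Reads of XI lines were aligned to a GJ genome, and the part of this in such shifts was not tested.

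**Figure D5:**
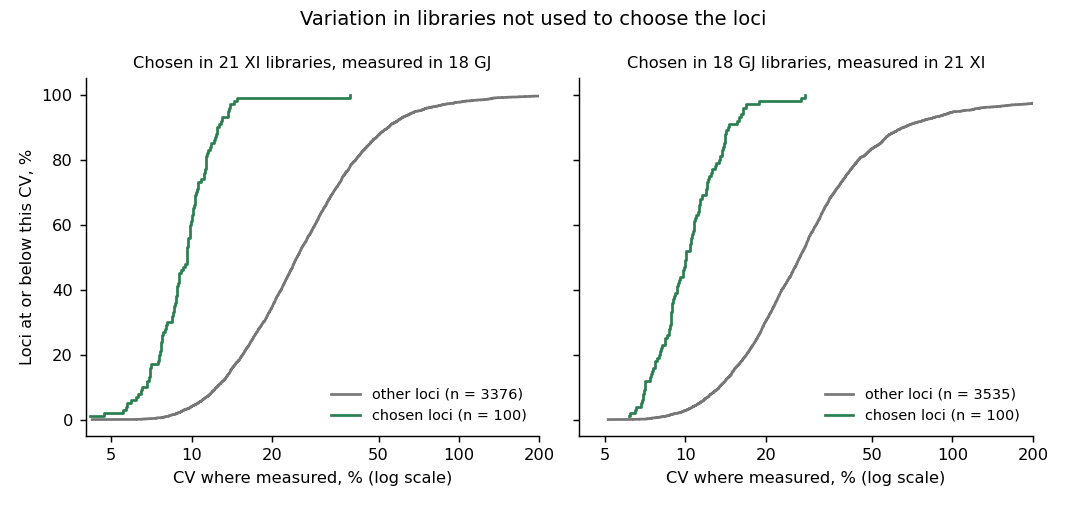
Share of loci in percent (y axis) at or below a given CV (x axis, percent, log scale) in libraries not used for the choice, for 100 loci chosen in XI and measured in GJ (left) and the reverse (right). The chosen loci (green; medians 9.57% and 10.1%) lie to the left of the other loci of at least 20 FPKM (grey), of which those at 0 in every library measured are left out.

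The geometric mean of several loci varied less than 1 locus with the deposited values, but not in every replicate with plain totals. The deposited scaling was set over all 39 libraries and holds a typical gene equal, also in the replicate left out. A fall of the CV with more loci was thus favoured in advance with those values. The locus with the lowest CV in 2 replicates of each line had a CV of 6.78% to 9.06% over the 13 libraries of the remaining replicate. The geometric mean of the lowest 5 loci had a CV of 4.61% to 6.47%, and that of the lowest 20 one of 3.20% to 5.89%. With plain read totals the same 1 locus gave 14.2%, 8.24% and 8.41% in replicates 1, 2 and 3, and the same 20 loci gave 9.50%, 9.91% and 8.70%, so the 20 loci varied less than the 1 locus in replicate 1 only.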

How the data were processed

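Leaf mRNA of 13 lines was sequenced in 39 libraries. The authors aligned reads to IRGSP-1.0 with HISAT2 2.09, counted them with featureCounts 1.5.0-p3 and deposited FPKM per gene and library, by the submitters' processing notes and the study's methods. The FPKM stood in whole-number steps, from which reads per gene and gene lengths were computed. All 1036152 values above 0, in 44421 genes, came out whole within 0.01 reads. Reads per library ran from 3989749 to 8318598, fewer than the clean reads of the study, so they may be off by a common factor, and counting CVs would then be smaller than given. The deposited values carry a median-of-ratios scaling: the library total behind the FPKM, divided by the size factor, was 5566924 in every library.

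Tests were run in R 4.3.3 with limma 3.58.1. FPKM were put on the log2 scale after adding 1, and a gene was tested if 3 or more libraries reached an FPKM of 0.5, with a variance trend over mean log2 reads and Benjamini-Hochberg adjustment over all genes tested. The fits were tested on simulated data. Lines were compared with parents over 6 libraries, and XI with GJ over 13 line means. The tests were planned for FPKM, so no count model was used. The computed reads entered the variance trend, the counting CVs and the plain read totals, but were not fitted as counts. Other values came from Python 3.11.15 with numpy 2.4.6 and pandas 2.3.3. The members, the lists and the variance trend were chosen with earlier results of these data known.

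Loci named are the 10 with the lowest CV, the 5 with the highest mean, the 5 with the largest XI to GJ difference (of these 3 are printed), the 5 with the widest range of line means and those next to the threshold. Loci called or shifted most in lists chosen on other libraries, and the closest and the adjacent pair, were picked after their values were seen. Functional groups, reference genes in common use, leaf marker genes and sequence features had been planned and were not analysed here, because 0 of the identifiers matched the gene table used. Replicates were checked for duplicates, and all were separate libraries. Replicate numbers gave no pairing, so they were not used as a block.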

Additional observations from a re-analysis of the deposited data

Results flagged for a closer look

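The line means of the named loci were searched for a line standing apart from the others of its subspecies, by Dixon's test at the 95% level. In 60 groups of 6 or 7 line means 3 stood out. Chance flags about 1 in 20 groups, but the loci were chosen on these same values, so the number cannot be set against chance. OS07G0103200 had 98.4 FPKM in HH1, where the other XI lines had 69.7 to 81.6. OS08G0127700 had 131 FPKM in CJ03, where the other GJ lines had 113 to 117. OS04G0533000, the locus with the lowest CV, had 49.6 FPKM in XS11, where the other GJ lines had 53.1 to 55.1.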

How the results depend on the processing

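The list of 100 loci changed most with the scaling, the SD of log2 ratios and the use of 1 subspecies alone. With 1 subspecies it also rested on the fewest libraries. It kept 35 of its loci with plain read totals, 11 with TPM, 65 with a minimum of 50 FPKM, 50 when XI and 45 when GJ libraries were used alone, and, as an alternative chosen after seeing the data, 22 by the SD of log2 ratios. It kept 82 to 86 without 1 replicate and 82 to 95 without 1 line. Median CVs in libraries not used for the choice were 11.01% (chosen in XI) and 11.5% (chosen in GJ) with plain totals, and 9.27% to 9.96% and 10.01% to 11.4% without 1 replicate. Calls against the parent, 0 with a fold change of at least 2, were 8 without a minimum fold change and 1 for the lists from the other 33 libraries. For those lists without a minimum fold change, the 17 calls in HH1 were 5 with plain totals and 2 to 21 without 1 replicate, and the 3 calls in KMD2 were 47 with plain totals and 0 to 3 without 1 replicate. With plain totals those lists were still the ones chosen with the deposited values. The 7 calls between XI and GJ were 4 with a pseudocount of 0.1, 11 without the filter, 17 with plain totals, 4 with limma's default trend (chosen after seeing the data), 42 over the 39 libraries as samples, 0 with a fold change of at least 2, 5 to 6 without 1 replicate, 3 without JH1, and 4 without any of MH63, T1C-19, XIY63, XXY63, JY63 and XS11. The 71 calls among lines were 19 to 37 without 1 replicate. The cause was not tested.

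Replicate numbers did not pair the samples: deviations of same-numbered libraries of a line and its parent correlated from -0.23 to 0.22, and in no comparison were all 3 pairs above 0.1. With a replicate block the calls in HH1 were 5, those in KMD2 2, those between XI and GJ over the 39 libraries 39 and those among lines 71. The 0 calls against the parent with a fold change of at least 2 are fixed by the rule under any setting that keeps the deposited scaling, and a count of 0 with the block shows nothing about stability.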
